A study of Mus musculus with 62 samples.

Results

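Dscam and Jam2 are cell adhesion genes of the immunoglobulin superfamily that lie on the part of mouse chromosome 16 present in 3 copies in Ts65Dn mice, a model of Down syndrome. They were examined together with their closest relatives in the mouse, Dscaml1 for Dscam, and Jam3 and F11r for Jam2, which lie on other chromosomes and are present in 2 copies. The 5 genes were found by their mouse symbols among the 27179 rows of the deposited gene counts, and each was counted in all 62 libraries. All 5 passed the filter on low counts in every comparison, and the rule that picks them reads gene symbols and no measured value.

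PolyA RNA was sequenced from forebrain of embryos at E17.5 (8 euploid and 7 Ts65Dn embryos, sex not given) and from hippocampus of 6-week-old mice (male: 8 euploid, 7 Ts65Dn and 8 Ts65Dn;Brwd1+/-; female: 8 of each genotype). Every animal was on the DBA/2J x B6EiC3Sn/J mixed background. Ts65Dn mice carry a freely segregating extra chromosome with the distal part of chromosome 16 and the centromeric part of chromosome 17. Ts65Dn;Brwd1+/- mice carry the same extra chromosome and are heterozygous for the repro5 mutation of Brwd1, a bromodomain gene of the triplicated region, while Dscam and Jam2 stay at 3 copies. Whole tissue was used, so a change may lie in any of its cells, and more cells of a type and more RNA per cell cannot be told apart.

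DSCAM and DSCAML1 are large transmembrane proteins whose extracellular immunoglobulin and fibronectin repeats bind like with like between neighbouring neurites. They are known for self-avoidance and spacing of neurites in the retina, and DSCAM also for binding netrin in axon guidance. The junctional adhesion molecules are small, with a pair of immunoglobulin domains and a tail that binds PDZ scaffolds of tight junctions. JAM-B (Jam2) binds JAM-C (Jam3) across endothelial and other contacts and has been described on neurons as a brake on myelin wrapping, while JAM-A (F11r) belongs to epithelial and endothelial tight junctions.

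On mm10, Dscam (gene identifier 13508) occupies chr16:96587452-97171113 on the minus strand, with 33 exons in the RefSeq transcript used here and 6.04 kb of coding sequence. Jam2 (67374) lies at chr16:84774123-84826380 on the plus strand, near the proximal end of the triplicated region, with 10 exons and 0.90 kb of coding sequence. Dscaml1 (114873) lies at chr9:45427433-45753713 on the plus strand, Jam3 (83964) at chr9:27097384-27155421 on the minus strand and F11r (16456) at chr1:171437561-171464593 on the plus strand. Because single reads were counted without strand, the closeness of the relatives and the genes on the opposite strand bear on what each count holds. The coding sequences of Dscam and Dscaml1 were identical at 67.6% of 5982 aligned bases, with 21 bases as the longest identical run. Jam2 shared 55.0% of 885 aligned bases with Jam3 and 57.5% of 847 with F11r, and no identical run exceeded 11 bases. The closest stretch of 60 coding bases of each pair is shown, because it is where a short read would have the best chance of being placed on the wrong gene. Bases that differ between the genes of a pair are in capitals, and the sequences run 5′ to 3′ on the coding strand. They come from GENCODE transcripts on mm10 that are matched to RefSeq.
Dscam, coding bases 4868 to 4927, exons 27 to 29, spanning chr16:96622817-96640758 on the minus strand: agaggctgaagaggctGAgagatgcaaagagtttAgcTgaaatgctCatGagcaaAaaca
Dscaml1, coding bases 5030 to 5089, exons 27 to 29, spanning chr9:45746962-45749640 on the plus strand: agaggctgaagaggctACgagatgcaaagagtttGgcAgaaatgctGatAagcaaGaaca
Jam2, coding bases 295 to 354, exon 4, chr16:84809394-84809453 on the plus strand: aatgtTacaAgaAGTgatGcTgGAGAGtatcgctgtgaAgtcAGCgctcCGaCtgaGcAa
Jam3, coding bases 310 to 369, exon 4, chr9:27101904-27101963 on the minus strand: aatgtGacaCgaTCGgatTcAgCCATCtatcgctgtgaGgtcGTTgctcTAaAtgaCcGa
Jam2, coding bases 594 to 653, exons 5 to 6, spanning chr16:84813095-84815224 on the plus strand: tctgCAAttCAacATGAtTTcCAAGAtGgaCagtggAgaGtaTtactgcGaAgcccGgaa
F11r, coding bases 588 to 647, exons 5 to 6, spanning chr1:171461403-171461618 on the plus strand: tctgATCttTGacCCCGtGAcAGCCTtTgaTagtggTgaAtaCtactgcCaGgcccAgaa
Dscam and Dscaml1 differed at 7 of these 60 bases, Jam2 and Jam3 at 21, and Jam2 and F11r at 24. In the GENCODE annotation of the same build, exons of Dscam, Dscaml1 and Jam3 overlap those of unnamed genes on the opposite strand, which the tables do not count apart.

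Library totals (in M, for mega) ranged from 14.9 to 62.6 M counts in the embryonic libraries and from 33.6 to 137.1 M counts in the adult ones. The 5 genes held from 108 counts (F11r, E17.5) to 21480 counts (Dscaml1, adult) in a library. Levels below are log2 CPM (counts per M counts of the library, with the library total scaled by its size factor), and fold changes are log2 values from edgeR's quasi-likelihood test, called at a Benjamini-Hochberg adjusted p-value under 0.1 over all genes. Brwd1 was 0.56 higher in Ts65Dn than in euploid forebrain (adjusted p = 1.186e-05), 0.53 higher in male (adjusted p = 0.009843) and 0.46 higher in female Ts65Dn hippocampus (adjusted p = 0.0243). Its difference between Ts65Dn;Brwd1+/- and Ts65Dn was -0.25 in both sexes and did not pass (adjusted p = 0.627 in males and 0.9999 in females). In 4 adult libraries labelled trisomic, the median of the other triplicated genes stood at the euploid level (log2 ratio to the euploid mean 0.000393 to 0.0394, against 0.51 to 0.63 in the other adult libraries of those genotypes). These were male Ts65Dn replicate B145, male Ts65Dn;Brwd1+/- replicates T35 and B138, and female Ts65Dn;Brwd1+/- replicate B136. In a further pair, male Ts65Dn replicate B88 and female euploid replicate B85, Xist and Ddx3y went against the labelled sex. All were kept under their labels, and the comparisons of Dscam and Jam2 with euploid mice are also given without them.

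Dscam was higher in Ts65Dn forebrain. In euploid embryos its log2 CPM ran from 6.11 (lowest) through 6.73 (median) to 7.18 (highest), and in Ts65Dn embryos from 7.06 through 7.72 to 8.06. Of the 7 Ts65Dn libraries, 6 stood above the highest euploid library, and replicate 6, the lowest, lay inside the euploid range. The log2 fold change was 0.86 ± 0.17 (SE), a 1.82-fold difference (95% interval 0.51 to 1.22, adjusted p = 0.0171), against 1.35% of all 16395 genes called in either direction and 1.1% called higher. The interval holds 0.585, the log2 of 3 copies over 2. The spread of Dscam between embryos was wide, with a coefficient of variation of the CPM of 23.1% in euploid and 23.9% in Ts65Dn, against 9.5% and 6.7% for Jam2.

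Jam2 was also higher in Ts65Dn forebrain, and here the groups did not overlap. Euploid embryos ran from 4.86 through a median of 5.09 to 5.24 log2 CPM, and Ts65Dn embryos from 5.70 through 5.87 to 5.96. Of all genes, 0.464% had every Ts65Dn library above every euploid library. The log2 fold change was 0.79 ± 0.07 (SE), a 1.73-fold difference (adjusted p = 3.289e-06), and its 95% interval of 0.66 to 0.93 lay above 0.585.

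The 3 relatives in 2 copies did not pass the test in the forebrain. Dscaml1 ran from 6.48 to 6.89 in euploid and from 6.11 to 6.87 in Ts65Dn embryos, and its fold change was -0.16 (95% interval -0.36 to 0.04, adjusted p = 0.502). Jam3 ran from 4.66 to 5.07 and from 4.63 to 4.92, with a fold change of -0.04 (-0.18 to 0.11, adjusted p = 0.839). F11r, the lowest of the 5, ran from 2.40 to 3.13 and from 2.742 to 2.996, with a fold change of 0.18 (-0.05 to 0.41, adjusted p = 0.494). All 3 intervals lay below 0.585.

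**Figure D1:**
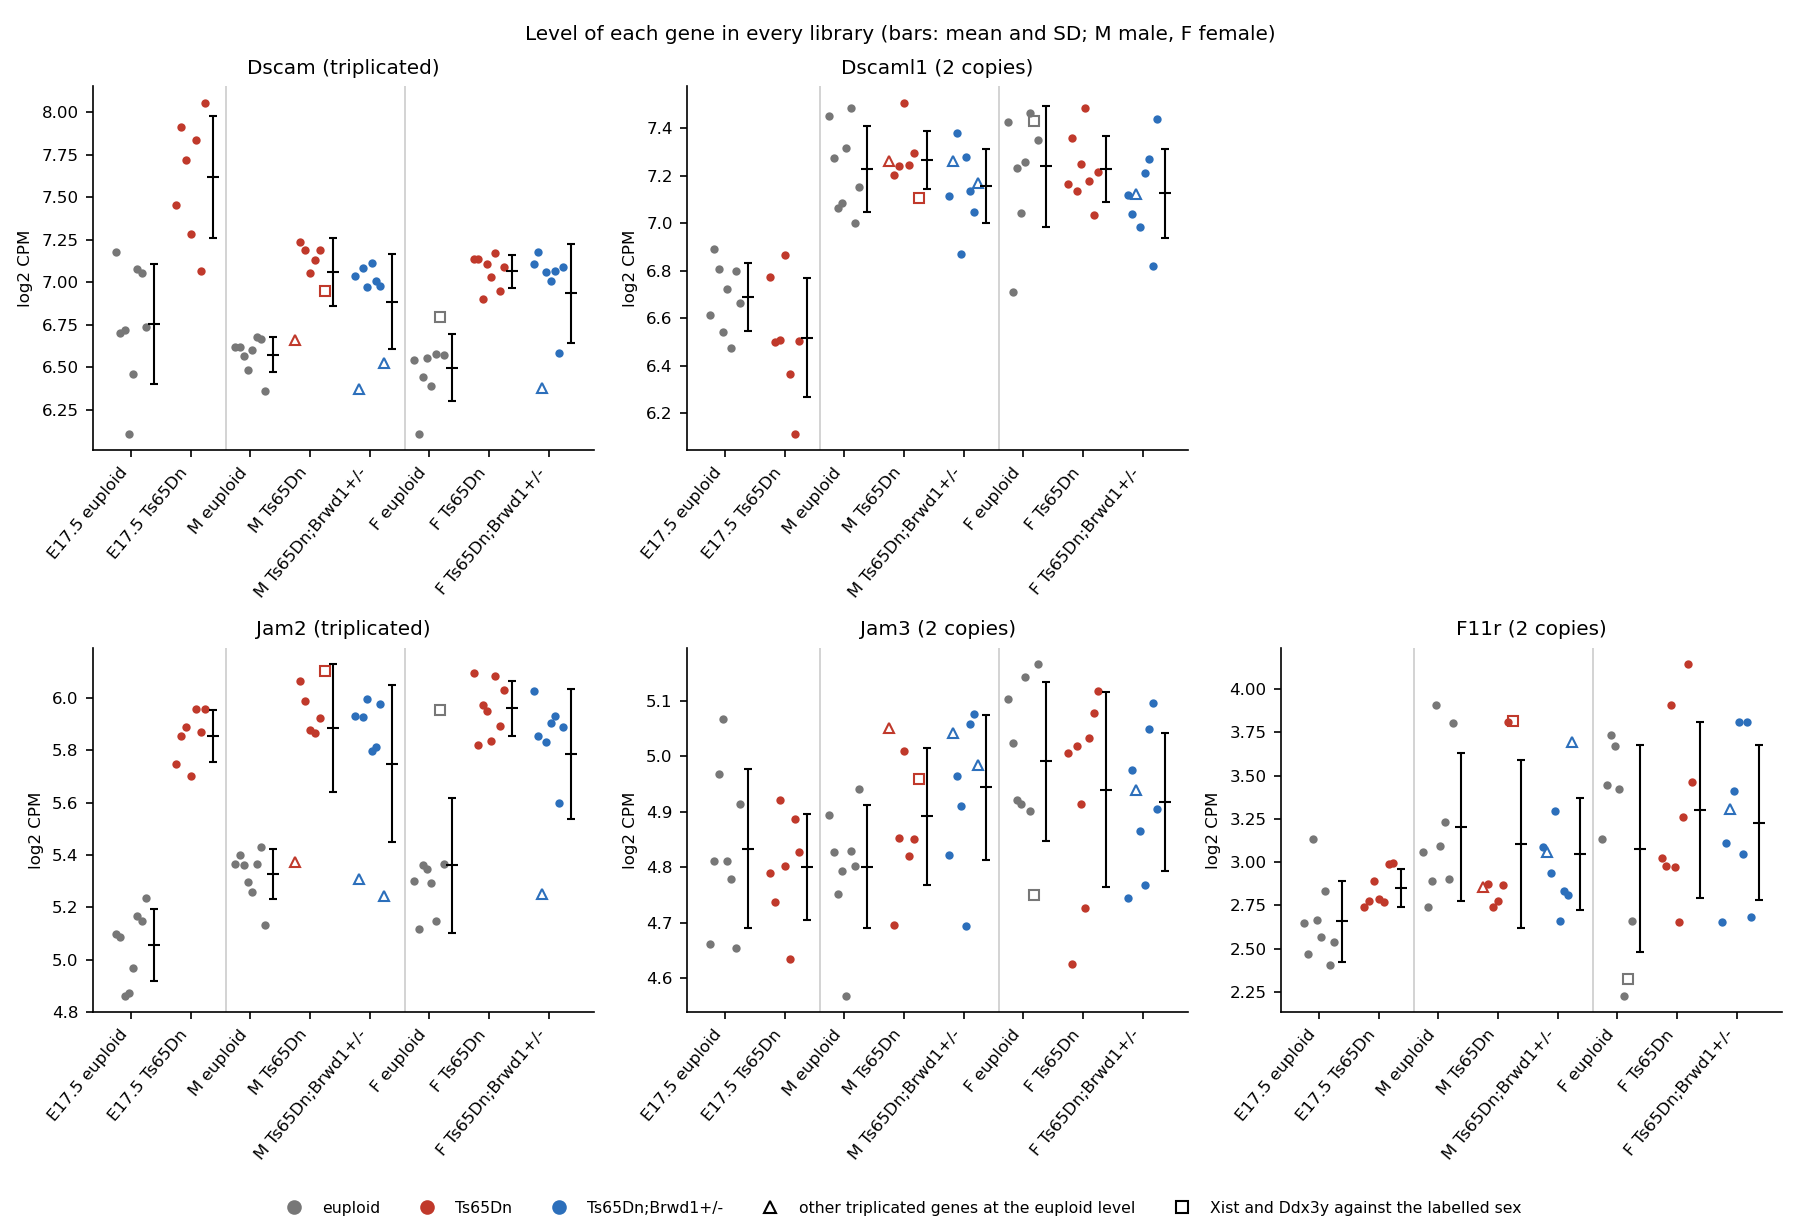
Level of each gene in log2 CPM (vertical axis) in every library of the 8 groups (horizontal axis); points are libraries, bars the mean and SD, open triangles libraries whose other triplicated genes stood at the euploid level and open squares libraries whose Xist and Ddx3y go against the labelled sex. Dscam and Jam2 are higher in most trisomic libraries, and the triangles sit with the euploid libraries, while Dscaml1, Jam3 and F11r overlap between genotypes.

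The forebrain libraries differed in the tissue they held, and Dscam varied with it. The summed CPM of 6 hindbrain markers (Hoxb3, Hoxa2, En2, Gabra6, Cbln3, Barhl1) ran from 6.17 to 105.1 in euploid and from 29.1 to 274.1 in Ts65Dn embryos. None of the 5 hindbrain markers tested passed on its own, with a median fold change of 1.19. Over the 15 libraries, with each group's mean taken off, Spearman's rank correlation with the hindbrain sum was 0.80 for Dscam and 0.65 for Jam2, against -0.15 for Dscaml1, -0.58 for Jam3 and 0.04 for F11r. The rank correlation of Dscam with the hippocampal marker sum was -0.84. With the sums of oligodendrocyte precursor and oligodendrocyte markers it was 0.69 and 0.60, and with those of microglia and progenitors -0.67 and -0.62. That of Jam2 with the microglial sum was -0.56. With the hindbrain sum as a covariate, an alternative chosen after seeing the data, Dscam was 0.55 higher in Ts65Dn and no longer passed (adjusted p = 0.111), while Jam2 was 0.70 higher and passed (adjusted p = 2.946e-05). The sum of 8 endothelial markers, among them the tight junction gene Cldn5, ran from 166.9 to 220.6 in euploid and from 190.5 to 261.0 in Ts65Dn embryos, with 1 of 8 called higher (Cdh5), and the rank correlation with it was -0.15 for Jam2. Pdgfra among 6 markers of oligodendrocyte precursors (list median 0.34) and Gja1 among 6 of astrocytes (0.26) were also called, where 1.35% of all genes were. The precursor sum ran from 192.6 to 355.2 in euploid and from 256.3 to 386.4 in Ts65Dn embryos. The sum of 8 choroid plexus markers ran from 51.4 to 1434 in euploid and from 672.5 to 1565 in Ts65Dn embryos, with a median fold change of 0.64 (0.41 to 1.18) and none of the 8 called, and the rank correlation with it was 0.02 for Dscam and -0.06 for Jam2. The part of tissue makeup in the Dscam and Jam2 differences was not otherwise tested. With the second number of the library names as a block, Dscam stood at 0.86 (adjusted p = 0.02901) and Jam2 at 0.79 (adjusted p = 2.867e-06).

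**Figure D2:**
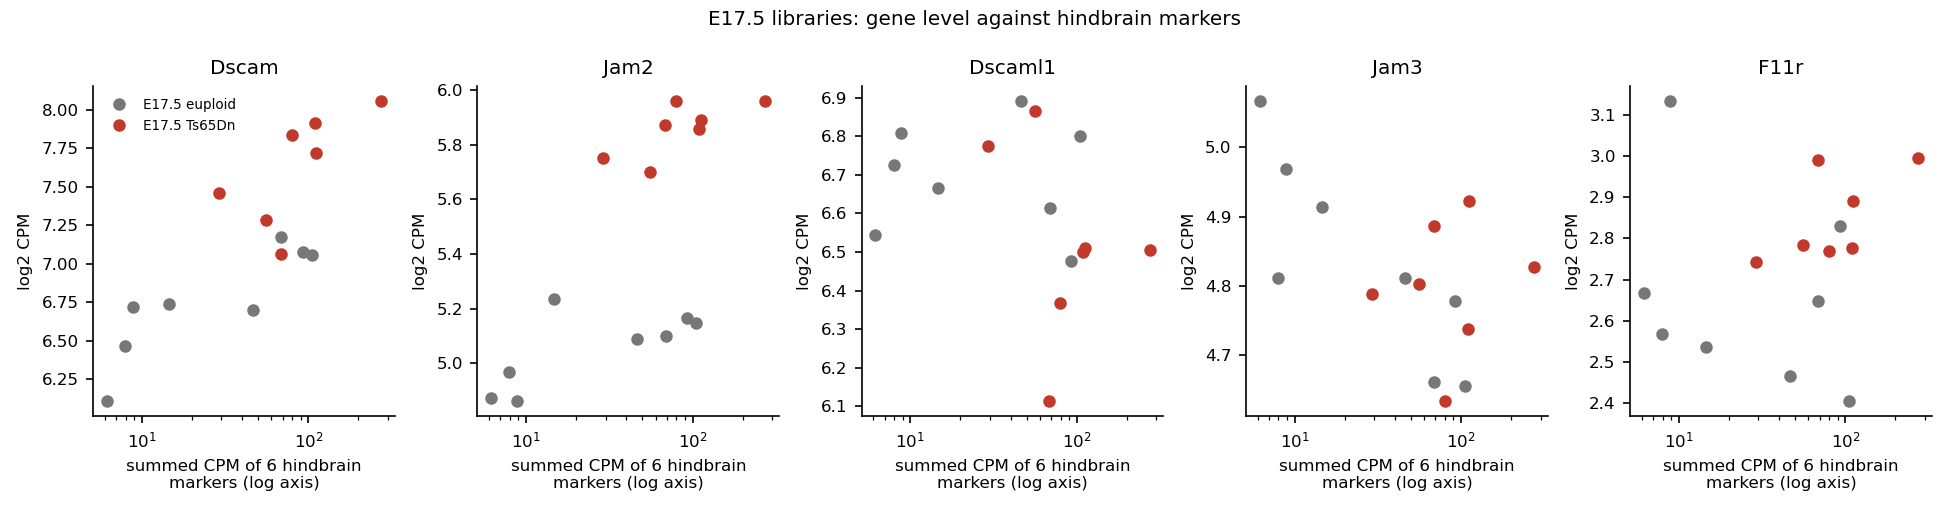
Log2 CPM of the 5 genes (vertical axes) against the summed CPM of 6 hindbrain markers (horizontal axis, logarithmic) in the 8 euploid (grey) and 7 Ts65Dn (red) E17.5 libraries. Dscam is higher where the markers are higher in both groups, and the Jam2 groups stay apart at every marker level.

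In male hippocampus, both triplicated genes were higher in Ts65Dn. Dscam ran from 6.36 through a median of 6.61 to 6.68 in euploid and from 6.66 through 7.13 to 7.24 in Ts65Dn males. Jam2 ran from 5.13 through 5.36 to 5.43 and from 5.37 through 5.92 to 6.10. For both genes, 6 of 7 Ts65Dn libraries lay above every euploid library, and the exception was B145, at the euploid level of the other triplicated genes. The fold change of Dscam was 0.49 ± 0.10 (SE; 95% interval 0.29 to 0.69, adjusted p = 0.01971) and that of Jam2 was 0.57 ± 0.11 (0.35 to 0.79, adjusted p = 0.01429), against 0.795% of 16851 genes called and 0.671% called higher. Without B145 alone they were 0.55 (adjusted p = 0.001998) and 0.64 (adjusted p = 0.0006809), and neither gene's groups overlapped, against 0.647% of genes with every Ts65Dn library higher. With the Ts65Dn;Brwd1+/- libraries T35 and B138 also left out of the shared fit, the adjusted p were 1.489e-07 and 2.423e-08. Without B88, Dscam was 0.51 higher (adjusted p = 0.02668) and Jam2 0.53 higher (adjusted p = 0.0296). Both intervals of the comparison with all libraries hold 0.585.

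In female hippocampus, Dscam ran from 6.11 through a median of 6.55 to 6.80 in euploid and from 6.90 through 7.10 to 7.17 in Ts65Dn mice, with no overlap in 8 against 8 libraries, against 0.437% of all genes with every Ts65Dn library higher. Its fold change was 0.55 ± 0.10 (SE; 0.35 to 0.75, adjusted p = 0.003081), against 3.17% of 17146 genes called and 1.94% called higher. Jam2 ran from 5.12 through 5.32 to 5.95 and from 5.82 through 5.96 to 6.10, with a fold change of 0.57 ± 0.10 (0.36 to 0.79, adjusted p = 0.003761). Here 4 of 8 Ts65Dn libraries lay above every euploid library, because euploid replicate B85 stood at 5.95, inside the Ts65Dn range. In B85 the other triplicated genes were at the euploid level, while Dscam was 6.80, the highest of the euploid females, Jam3 was 4.75, the lowest, and Xist and Ddx3y went against the label. Without B85, the Jam2 groups did not overlap, its fold change was 0.68 (adjusted p = 4.499e-05), and that of Dscam was 0.60 (adjusted p = 0.001246).

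Markers of hippocampal fields and other cells were tested beside these results, and their part in the fold changes was not tested. In Ts65Dn females, Spink8 and Wfs1 among 7 hippocampal markers (list median -0.19) and Olig1 and Olig2 among 6 of oligodendrocyte precursors (0.11) were called, and Olig1 and Olig2 lie in the triplicated part of chromosome 16. In Ts65Dn males, Aif1 alone was called, 1 of 5 microglial markers (0.06). Against euploid males, Ts65Dn;Brwd1+/- males had Aif1 again (list median -0.06), Flt1 among 8 endothelial markers (-0.18) and Slc1a2 among 6 of astrocytes (-0.14) called. In Ts65Dn;Brwd1+/- females Eomes was called, 1 of 6 progenitor markers (-0.22). Of all genes, 3.17% were called in either direction in Ts65Dn females and 0.795% in Ts65Dn males. In Ts65Dn;Brwd1+/- mice these shares were 0.729% in females and 0.576% in males.

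Dscaml1, Jam3 and F11r did not pass in either sex. Their fold changes in Ts65Dn vs. euploid males were 0.03 (-0.13 to 0.19), 0.09 (-0.04 to 0.22) and -0.08 (-0.52 to 0.35), with adjusted p of at least 0.740. In females they were -0.03 (-0.23 to 0.16), -0.06 (-0.21 to 0.10) and 0.20 (-0.30 to 0.70), with adjusted p of at least 0.777. For F11r the female interval holds both 0 and 0.585, so it does not tell no change from a change of the size of the extra copy. No sex by genotype term passed. That term for Ts65Dn vs. euploid was 0.07 (-0.22 to 0.35, adjusted p = 0.914) for Dscam and 0.01 (-0.30 to 0.32, adjusted p = 0.990) for Jam2. Across all 17427 genes, 0 passed in edgeR (percent called 0), 1935 had an unadjusted p under 0.05, and up to 2584 passed in DESeq2 with 3 RUVr factors.

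In Ts65Dn;Brwd1+/- mice, Jam2 was called higher than in euploid mice of both sexes and Dscam in females, and the difference between the trisomic genotypes did not pass. Comparisons within a sex share their euploid and Ts65Dn libraries. In males, Dscam ran from 6.37 through a median of 6.99 to 7.12 and Jam2 from 5.25 through 5.87 to 6.00. The lowest 2 libraries of both genes were T35 and B138, at the euploid level of the other triplicated genes, and the other 6 lay above every euploid library, while 0.089% of genes had all 8 above. Against euploid males, Dscam was 0.33 higher (0.13 to 0.52, an interval below 0.585) and did not pass (adjusted p = 0.1618), and Jam2 was 0.44 higher (0.23 to 0.66) and passed (adjusted p = 0.0677), where 0.576% of genes were called. With T35, B138 and the Ts65Dn library B145 left out of the shared fit together, Dscam was 0.46 higher (adjusted p = 2.541e-06) and Jam2 0.58 higher (adjusted p = 9.868e-08), and both genes' groups were apart, against 0.736% of genes with every library higher. The call of Dscam appeared when either T35 or B138 was left out (fold change 0.38 to 0.39, adjusted p = 0.01623 to 0.05596). The call of Jam2 was lost when any of 11 libraries was left out (fold change 0.41 to 0.45, adjusted p = 0.1024 to 0.1541), which were euploid B80, B79, B139, B122 and B110 and Ts65Dn;Brwd1+/- B137, B94, B69, B51, B26 and B24.

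In females, Dscam ran from 6.38 through a median of 7.06 to 7.18 and Jam2 from 5.25 through 5.87 to 6.03, with B136 lowest for both. Replicate B176 was next lowest for both (6.58 and 5.60), inside the euploid ranges, while its other triplicated genes stood at 0.56 over the euploid mean. Without B136 both genes' groups still overlapped those of euploid females, while 0.414% of genes had every library higher. That overlap came from euploid B85. Without B85 the highest euploid values were 6.575 for Dscam and 5.365 for Jam2, and B176 stood above them, at 6.581 and 5.597. For Dscam 6 of 8 libraries and for Jam2 1 of 8 lay above every euploid library (7 of 8 for each gene without B85), while 0.07% of genes had all 8 above. Against euploid females, Dscam was 0.45 higher (0.24 to 0.65, adjusted p = 0.03021) and Jam2 0.42 higher (0.20 to 0.63, adjusted p = 0.0827), where 0.729% of genes were called. Without B136 they were 0.51 (adjusted p = 0.001162) and 0.48 (adjusted p = 0.007695), and without B85 0.49 (adjusted p = 0.01466) and 0.52 (adjusted p = 0.001741). The call of Jam2 was lost without any of 11 libraries (fold change 0.38 to 0.42, adjusted p = 0.1388 to 0.1906), which were euploid B65, B21, B12, B184 and B17 and Ts65Dn;Brwd1+/- B167, B166, B181, B175, B133 and B113.

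Against Ts65Dn itself, Dscam differed by -0.16 (-0.36 to 0.04, adjusted p = 0.719) in Ts65Dn;Brwd1+/- males and by -0.10 (-0.31 to 0.10, adjusted p = 0.9999) in females. Jam2 differed by -0.13 (-0.35 to 0.10, adjusted p = 0.830) and -0.15 (-0.37 to 0.06, adjusted p = 0.9999). No gene passed in either sex by edgeR (percent called 0 in both), while 1261 male and 604 female genes had an unadjusted p under 0.05, and up to 993 and 840 passed in DESeq2 with 3 RUVr factors. Without the libraries at the euploid level of the other triplicated genes, the differences were -0.09 and -0.06 in males and -0.04 and -0.10 in females for Dscam and Jam2. The sex by genotype terms of this comparison were 0.05 (-0.23 to 0.34) for Dscam and -0.03 (-0.34 to 0.27) for Jam2. Dscaml1, Jam3 and F11r gave -0.11, 0.05 and -0.10 in males and -0.09, -0.02 and -0.09 in females, and none passed. Jam3 was 0.14 higher in Ts65Dn;Brwd1+/- than in euploid males (0.02 to 0.27), with an unadjusted p of 0.02586 and an adjusted p of 0.4217 in edgeR, and was called in DESeq2 with 3 RUVr factors (adjusted p = 0.0734). Dscaml1 in Ts65Dn;Brwd1+/- vs. euploid females was called lower, by -0.11, with 3 RUVr factors in edgeR (adjusted p = 0.075) and DESeq2 (adjusted p = 0.05879), and not in the fit without those factors.

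**Figure D3:**
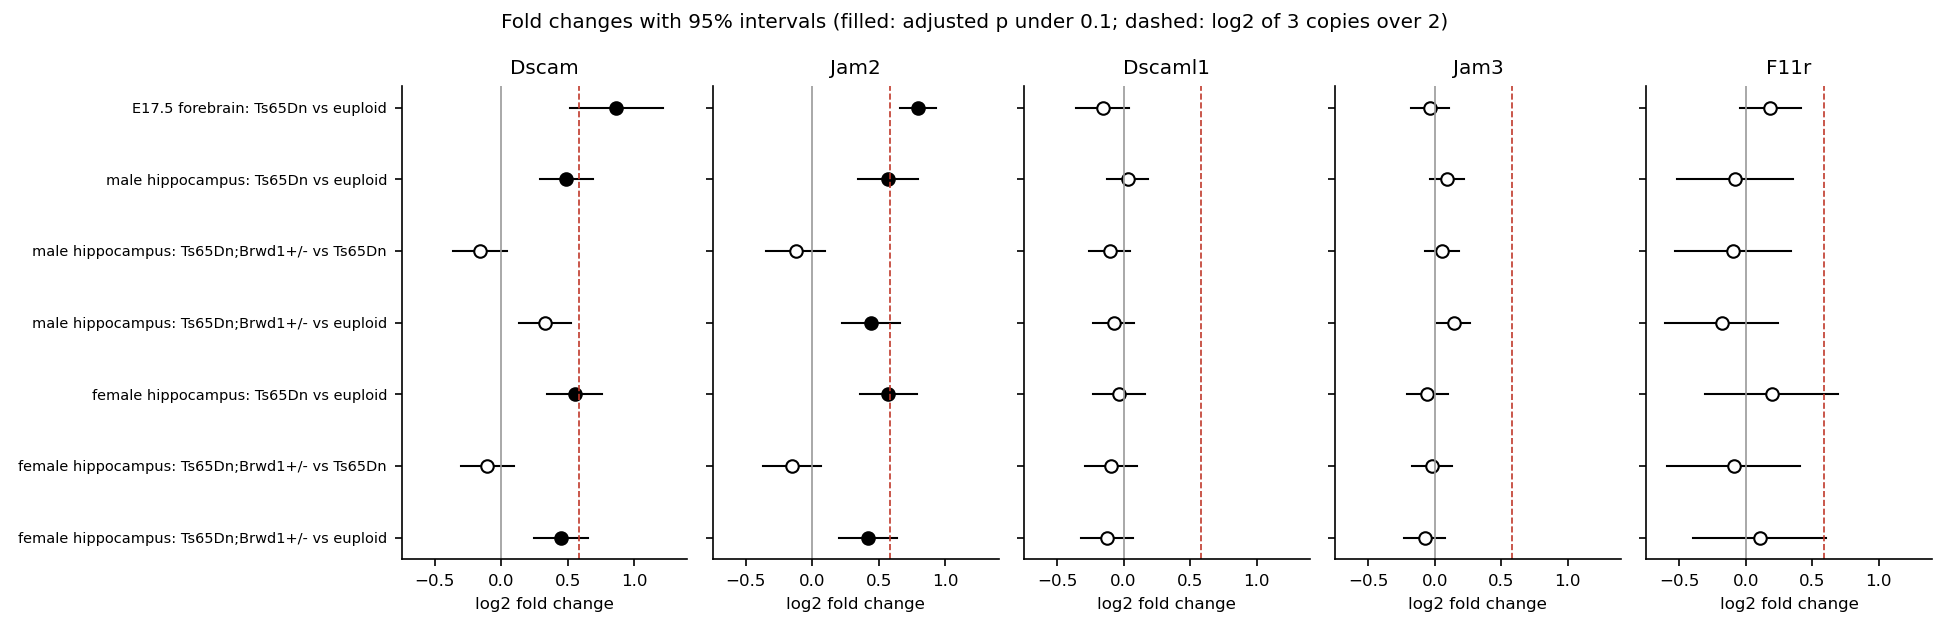
Log2 fold changes (horizontal axes) with 95% intervals of the 5 genes in the 7 comparisons (vertical axis); filled points passed at an adjusted p under 0.1, the dashed line marks 0.585 (3 copies over 2) and the grey line 0. Dscam passed in 4 and Jam2 in 5 of the 5 comparisons with euploid, and the interval of Jam2 lies right of the dashed line at E17.5.

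The ratio of a triplicated gene to its relative within a library does not depend on how libraries are scaled. It was compared by a two-sided exact permutation test over libraries, adjusted over 21 tests, with 0.05 as the threshold. Log2 of Dscam over Dscaml1 was 0.06 ± 0.38 (SD, n = 8) in euploid and 1.10 ± 0.43 (n = 7) in Ts65Dn embryos (difference 1.03, adjusted p = 0.004569, exact permutation test). It was -0.66 ± 0.17 and -0.21 ± 0.23 in euploid and Ts65Dn males (difference 0.45, adjusted p = 0.007459, exact). In females it was -0.74 ± 0.15 and -0.16 ± 0.14 (difference 0.58, adjusted p = 0.001632, exact), with no overlap and the smallest p this design allows, 0.0001554. Ts65Dn;Brwd1+/- mice stood at -0.27 ± 0.33 in males and -0.19 ± 0.28 in females, 0.38 (adjusted p = 0.03459) and 0.55 (adjusted p = 0.004079) above euploid by the exact test. The male value passed 0.05 narrowly: it was lost without any of 8 libraries, euploid B100, B79, B80 and B95 and Ts65Dn;Brwd1+/- B137, B26, B69 and B94 (difference 0.33 to 0.37, adjusted p = 0.05014 to 0.05776, exact), and was 0.55 without T35 and B138. In Ts65Dn vs. euploid the difference was 0.51 in males without B145 (adjusted p = 0.002538, exact), 0.44 without B88 (adjusted p = 0.009615, exact) and 0.59 in females without B85 (adjusted p = 0.002176, exact). In Ts65Dn;Brwd1+/- females it was 0.63 without B136 (adjusted p = 0.001088, exact) and 0.57 without B85 (adjusted p = 0.004662, exact).

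Log2 of Jam2 over Jam3 was 0.22 ± 0.25 (SD, n = 8) in euploid and 1.05 ± 0.15 (n = 7) in Ts65Dn embryos (difference 0.83, adjusted p = 0.001632, exact), again without overlap. It was 0.53 ± 0.15 in euploid and 0.99 ± 0.33 in Ts65Dn males (difference 0.47, adjusted p = 0.01305, exact) and 0.37 ± 0.36 and 1.02 ± 0.12 in females (difference 0.65, adjusted p = 0.004895, exact). In Ts65Dn;Brwd1+/- it was 0.80 ± 0.35 in males and 0.87 ± 0.32 in females. The male difference from euploid, 0.28, did not pass (adjusted p = 0.1029, exact) and was 0.46 without T35 and B138 (adjusted p = 0.001399, exact), and it passed when either library alone was left out (0.36, adjusted p = 0.02581 to 0.02872, exact). The female difference, 0.50, passed (adjusted p = 0.03459, exact), though not without any of euploid B125, B184 and Ts65Dn;Brwd1+/- B113, B167 (0.44 to 0.47, adjusted p = 0.05043 to 0.05429, exact). It was 0.58 without B136 (adjusted p = 0.01115, exact) and 0.62 without B85 (adjusted p = 0.004662, exact). In Ts65Dn vs. euploid the difference was 0.58 in males without B145 (adjusted p = 0.001399, exact), 0.44 without B88 (adjusted p = 0.02176, exact) and 0.77 in females without B85 (adjusted p = 0.001632, exact).

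Jam2 over F11r differed by 0.61 between Ts65Dn and euploid embryos (adjusted p = 0.003263, exact), and by 0.66 between males (adjusted p = 0.0442, exact), which was 0.70 without B145 (adjusted p = 0.03981, exact) and 0.74 without B88 (adjusted p = 0.03179, exact). The male result was lost without any of 9 libraries, euploid B100, B139, B79, B80 and B95 and Ts65Dn B25, B40, B45 and B52 (0.54 to 0.68, adjusted p = 0.05281 to 0.08858, exact). The female difference of 0.38 did not pass (adjusted p = 0.3457, exact), nor did those of Ts65Dn;Brwd1+/- with euploid, 0.58 in males (adjusted p = 0.08594, exact) and 0.27 in females (adjusted p = 0.5179, exact). Without B85 the female differences from euploid were 0.57 in Ts65Dn (adjusted p = 0.08987, exact) and 0.47 in Ts65Dn;Brwd1+/- (adjusted p = 0.1845, exact). The male value was 0.74 without T35 (adjusted p = 0.01101, exact). None of the 3 ratios differed between Ts65Dn;Brwd1+/- and Ts65Dn in either sex (differences of -0.19 to -0.03, adjusted p of at least 0.346, exact).

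**Figure D4:**
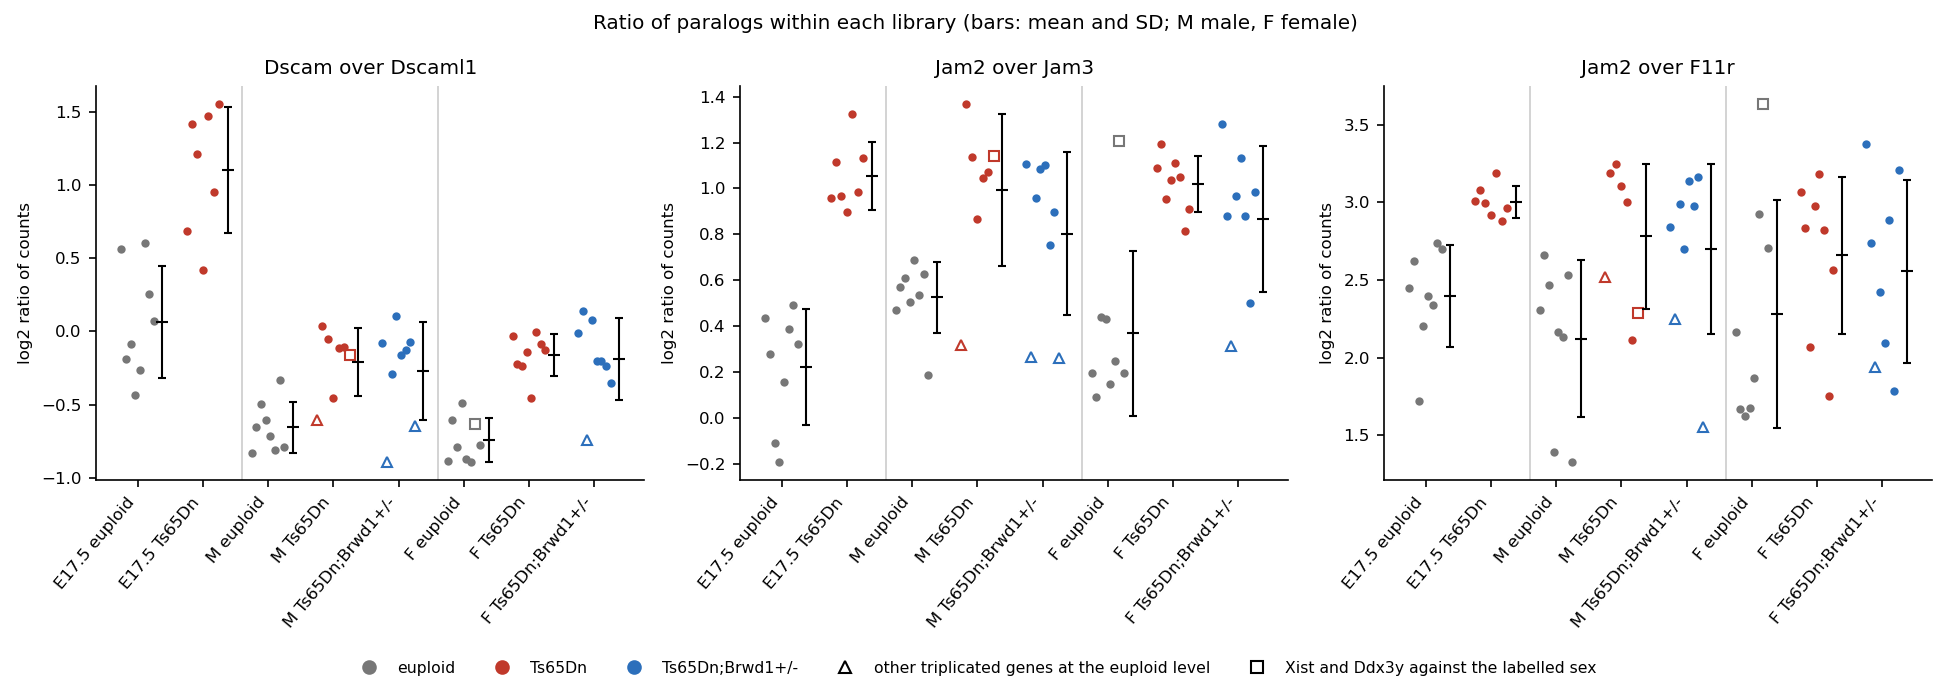
Log2 ratio of counts of Dscam over Dscaml1, Jam2 over Jam3 and Jam2 over F11r (vertical axes) in every library of the 8 groups (horizontal axis), with mean and SD; symbols as in the plot of gene levels. The first pair of ratios is higher in most trisomic libraries, with some overlap beyond the triangles, and Jam2 over F11r is spread widely in adult hippocampus. Euploid female B85 has Jam2 over Jam3 at the trisomic level.

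Dscam and Jam2 were next set against the other genes of the triplicated segments, of which 131 were tested in the forebrain. There 81 (61.8%) were called higher and none lower, with a median fold change of 0.55 (quartiles 0.47 to 0.69). By fold change, from the highest and with both genes counted in, Dscam ranked 15 and Jam2 21 in the forebrain. In the hippocampus, where 131 others were tested in males and 132 in females, they ranked 73 and 39 in Ts65Dn males and 59 and 50 in Ts65Dn females, where the medians of the others were 0.50 and 0.52. In Ts65Dn;Brwd1+/- they ranked 104 and 63 in males and 75 and 82 in females, with medians of 0.44 and 0.48.

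Per library, each gene's log2 ratio to the euploid mean was compared with the median of the other triplicated genes, by the exact permutation test adjusted over 14 tests. In the forebrain the difference between Ts65Dn and euploid embryos exceeded that of the other triplicated genes by 0.23 for Jam2 (adjusted p = 0.03263, exact) and by 0.30 for Dscam (adjusted p = 0.3365, exact). All 7 Ts65Dn embryos had Jam2 above that median, by 0.08 to 0.33, while for Dscam the excess ran from -0.29 to 0.72. The part of tissue makeup in these values was not tested. The Jam2 call was lost without any of 8 embryos, euploid 1, 2 and 3 and Ts65Dn 2, 3, 5, 6 and 7 (0.20 to 0.23, adjusted p = 0.05711 to 0.1072, exact). With all libraries, no such difference passed in the hippocampus (adjusted p of at least 0.2815, exact). The farthest from 0 among these was Dscam in Ts65Dn;Brwd1+/- males, by -0.12 against Ts65Dn and -0.11 against euploid. The latter passed only without euploid B95 (-0.15, adjusted p = 0.04025, exact). Jam2 in Ts65Dn vs. euploid females was 0.05 with all libraries and 0.12 without B85 (adjusted p = 0.1617, exact), and Dscam in Ts65Dn;Brwd1+/- vs. Ts65Dn males was -0.15 without B88 (adjusted p = 0.06294, exact).

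**Figure D5:**
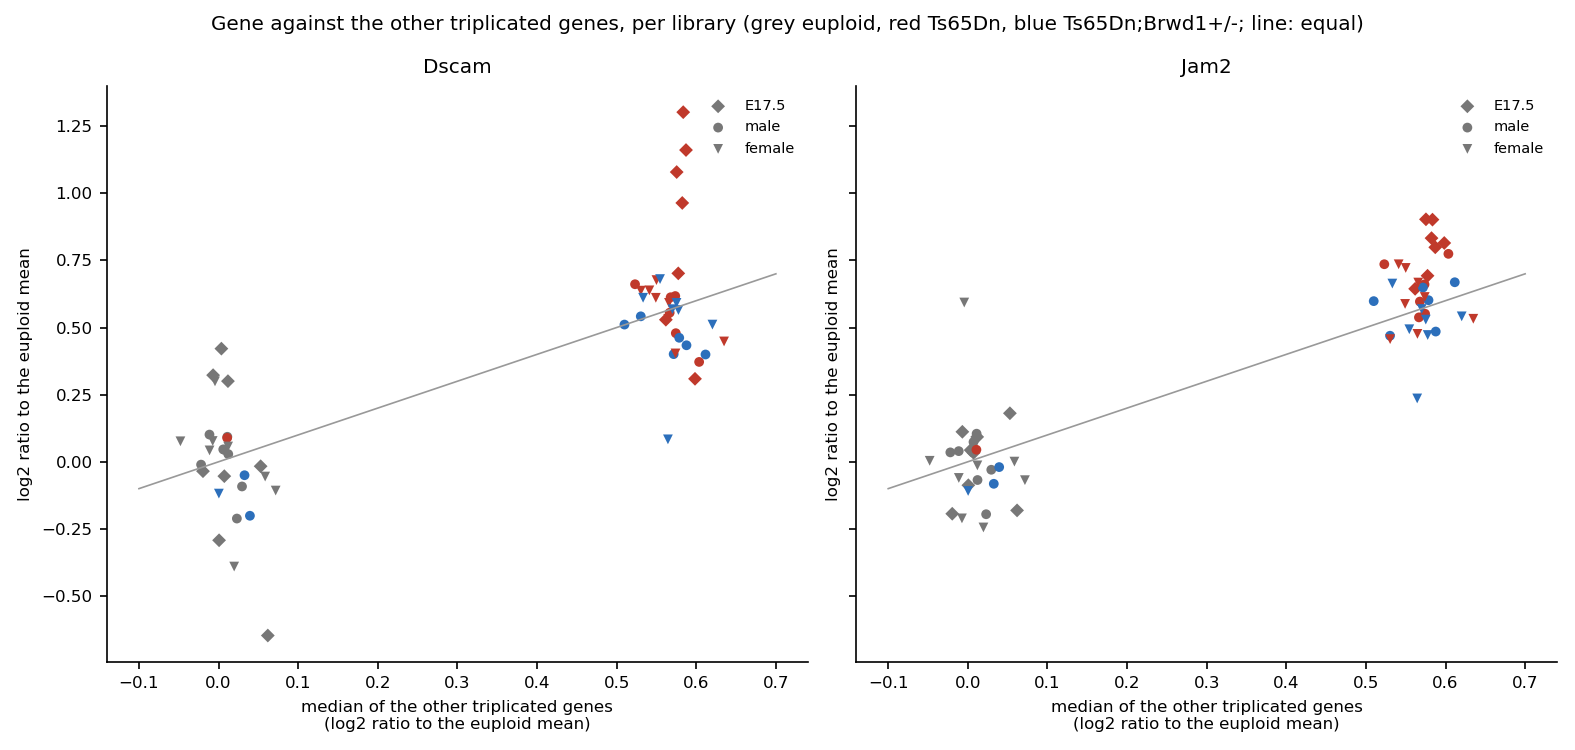
Log2 ratio of Dscam (left) and Jam2 (right) to the euploid mean (vertical axes) against the median over the remaining triplicated genes in that library (horizontal axes); symbols mark E17.5, male and female libraries, colours the genotype, and the line marks equal values. Adult trisomic libraries lie at 0.51 to 0.63 on the horizontal axis, the 4 at the euploid level excepted, Jam2 of the E17.5 Ts65Dn libraries lies above the line in 7 of 7, and 1 grey female library, B85, has Jam2 at the trisomic level.

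The genes beside Dscam and Jam2 gave a local comparison. The 2 nearest tested protein-coding genes on each side were used. Next to Dscam, Pcp4, a calmodulin regulator, was called higher in forebrain (0.77, adjusted p = 0.02363) and male Ts65Dn hippocampus (0.57, adjusted p = 0.02111), and was at 0.27 in females (adjusted p = 0.4135). Bace2, a relative of the beta-secretase, was called in Ts65Dn females only among the 5 comparisons with euploid (1.13, adjusted p = 0.07559), and Igsf5, itself a junction protein of the immunoglobulin family, and the kinase Ripk4 were not called. Next to Jam2, the mitochondrial genes Mrpl39 and Atp5j and the transcription factor gene Gabpa were called higher in all 5 comparisons with euploid, by 0.36 to 0.65. Ncam2, the neighbour on the centromeric side and outside the triplicated region, was called in none (-0.22 to 0.37).

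Levels were compared between genes as CPM per kb of exon. In euploid males the order was Dscaml1 (16.96), Dscam (10.9), Jam3 (8.73), Jam2 (6.65) and F11r (3.60). Dscaml1 exceeded Dscam and Jam3 exceeded Jam2 in 8 of 8 libraries, and the ranges of Dscam and Jam3 overlapped. In Ts65Dn males Dscam was at 15.3 beside 17.3 for Dscaml1, and Jam2 (9.88) stood level with Jam3 (9.30), above it in 5 of 7 libraries. In euploid females Dscaml1 was above Dscam in 8 of 8 and Jam3 above Jam2 in 7 of 8, and in Ts65Dn females Dscam was above Dscaml1 in 1 and Jam2 above Jam3 in 6 of 8.

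In the E17.5 forebrain Dscam and Dscaml1 were close in euploid embryos (12.6 and 11.6, Dscam higher in 4 of 8), and in Ts65Dn embryos Dscam was higher in 7 of 7 (22.9 and 10.4). Jam3 exceeded Jam2 in 8 of 8 euploid embryos (8.95 and 5.52), while in Ts65Dn embryos Jam2 exceeded Jam3 in 6 of 7 (9.59 and 8.72). F11r was lowest of the 5 at every age and genotype, at means of 2.39 to 3.91. Embryonic and adult levels are given side by side with no test, since tissue, age and table cannot be told apart.

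Among adult euploid libraries the genes varied with tissue markers, in part with the same ones. Over the 16 adult euploid libraries, with each sex's mean taken off, F11r followed the summed level of 8 choroid plexus markers (rank correlation 0.88), an epithelium whose share of a hippocampal dissection varied from 32.9 to 6326 CPM across the adult libraries. Its coefficient of variation of the CPM was 32.7% in euploid males and 37.6% in euploid females. Jam3 followed the sum of 6 myelin markers (rank correlation 0.73) and those of oligodendrocyte precursor (0.69) and hindbrain markers (0.62). Dscam (rank correlation -0.74) and Dscaml1 (-0.53) ran against the choroid plexus sum. Dscaml1 also ran with the astrocyte sum (0.65) and against the interneuron sum (-0.56), and F11r ran against the astrocyte sum (-0.57). Jam2 had no rank correlation beyond 0.5 with any of the marker sums (-0.49 with choroid plexus). The choroid plexus sum ran from 116.8 to 4967 in euploid, 42.4 to 5301 in Ts65Dn and 32.9 to 3251 in Ts65Dn;Brwd1+/- males. In females it ran from 48.1 to 6326, 39.0 to 5857 and 61.5 to 5726. Its range was wide in every group, but the medians differed. They were 1083, 136.1 and 832.4 in these male groups and 2027, 592.6 and 2133 in the female groups. In Ts65Dn vs. euploid the median fold change of the 8 markers was -0.25 in males and -0.43 in females, with none called. The part of these markers in the fold changes of the 5 genes was not tested. Adult hindbrain marker sums were low, 1.34 to 10.6 CPM, and hippocampal marker sums were 492.5 to 939.7 CPM.

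The genes whose levels ran most like each member over the same 16 libraries are given as a description. Points share the library and its tissue makeup, and the rank correlation of the 5 genes with the library total ran from -0.19 to 0.29. For Dscam they were Cmya5 (rank correlation 0.88), Amigo1, Eef1aknmt, Pcdhb7 and Zfp11 (0.82). For Jam2 they were Sall1 (0.85), a row without a RefSeq symbol, Hmgxb4, Mthfd2l and Sema3c (0.81). For Dscaml1 they were 9930014A18Rik (0.94), Camk2b, Arhgef17 and Slitrk5 (0.92), for Jam3 Mcam (0.83), Uspl1, Aspa, Josd2 and Evi2a (0.80), and for F11r Msx1os (0.96), Cdc42bpg, Elovl7, Nek5 and Ajuba (0.93). None of those with a RefSeq symbol lies in the triplicated segments, and the position of the row without one is not known. The rank correlation between Dscam and Jam2 was 0.65, and between Dscam and F11r -0.66.

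The members' wider pathways were followed through lists of genes. Of 30 genes of netrin and Slit guidance and Dscam signalling, all tested, none passed in forebrain (median fold change 0.00, against -0.01 for all genes) or male Ts65Dn hippocampus (0.01, against 0.00). In Ts65Dn females 2 of 30 were called higher, where 1.94% of all genes were (median 0.04, against -0.02): Unc5d, a netrin receptor (0.48, adjusted p = 0.0781), and Pak1, a kinase downstream of Rac and Cdc42 (0.25, adjusted p = 0.07951). None passed in Ts65Dn;Brwd1+/- vs. euploid (medians -0.05 in males and -0.01 in females) or vs. Ts65Dn (-0.03 and -0.05). The netrin gene Ntn1 and the receptors Dcc, Neo1, Unc5a, Unc5b and Unc5c were among those that did not pass.

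Of 30 relatives and partners of the junctional adhesion molecules, 29 or 30 were tested in each comparison. None passed in forebrain (median 0.06, against -0.01) or in male Ts65Dn (-0.03, against 0.00) or male Ts65Dn;Brwd1+/- hippocampus (-0.05, against 0.00). In females 1 of 30 was called higher, where 1.94% of all genes were in Ts65Dn and 0.554% in Ts65Dn;Brwd1+/-. It was Jaml, a junctional adhesion molecule-like protein of leukocytes, higher by 0.95 in Ts65Dn (adjusted p = 0.07267) and by 1.46 in Ts65Dn;Brwd1+/- (adjusted p = 0.004394), with list medians of 0.01 and 0.00. The level of Jaml was low, with a mean log2 CPM of -3.21 among euploid females, -2.35 for Ts65Dn and -1.83 for Ts65Dn;Brwd1+/-, and it did not pass the filter on low counts in the forebrain or in males. The scaffolds Tjp1, Afdn, Pard3 and Mpdz, the relatives Esam and Cxadr and the endothelial claudin Cldn5 did not pass.

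A list of 10 other triplicated genes of adhesion, junctions or the machinery beside them had 7 members tested in the forebrain and 8 in the hippocampus. In the forebrain 5 were called higher: App, the amyloid precursor (0.86), the protease gene Adamts1 (0.78), Synj1, a lipid phosphatase of endocytosis (0.63), the Rac activator Tiam1 (0.54) and the endocytic scaffold Itsn1 (0.47). The list median was 0.77. In Ts65Dn males 4 of 8 were called (App, Itsn1, Tiam1 and Synj1, at 0.47 to 0.54) and in Ts65Dn females 3 of 8 (Synj1 0.79, App 0.70 and Itsn1 0.53). Of the other triplicated genes as a whole, 61.8% were called higher in the forebrain, 54.2% in Ts65Dn males and 63.6% in Ts65Dn females, and of all genes 1.1%, 0.671% and 1.94%. App and Synj1, 2 of 8, were called in Ts65Dn;Brwd1+/- mice of both sexes, at 0.47 and 0.45 in males and 0.62 and 0.65 in females, where 38.2% and 41.7% of the triplicated genes and 0.439% and 0.554% of all genes were called higher. The claudin Cldn14 gave 0.83 to 1.24 in the 4 adult comparisons with euploid without passing, and Adamts5 and Igsf5 did not pass in any. These genes share the extra copy with Dscam and Jam2, and their list was drawn up for that reason.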

How the data were processed

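The authors deposited raw read counts per gene as whole numbers, with no normalization, for embryonic forebrain and adult hippocampus, in a table each. Libraries were made with a TruSeq RNA v2 kit, which keeps no strand, and the reads of a pair of flow cells were joined. Per the study's methods, reads were mapped to mm10 with HISAT2 and counted with featureCounts 2.0.1. The submitters' notes give HISAT2 2.1.0 and also list mm9. The read length is not given in the sources used here.

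Counts were tested with edgeR 4.0.16 in R 4.3.3 (TMM, filterByExpr with a minimum count of 10, robust quasi-likelihood), with Benjamini-Hochberg adjustment over all genes, called at 0.1. Each sex was fitted on its own with its 3 genotypes together. Levels are log2 CPM with a prior count of 0.5. Ratios use log2 of counts plus 0.5. Permutation tests were exact and two-sided, run in Python 3.11.15. Nothing in the labels ties libraries to litters, so p-values measure the spread between these samples. Symbols came from RefSeq for 25275 of 27179 rows. The segments run from Mrpl39 on chromosome 16 to its end and from the start of chromosome 17 to Pde10a, bounds taken from general knowledge.

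The genes named are the 5 members, the 2 nearest tested protein-coding genes on each side of Dscam and Jam2, the 5 genes most like each member, and genes of the 3 lists. A few genes and the values that need them are not reported here. The members and lists were chosen with earlier results of these data known. Alternatives were DESeq2 1.42.0, 3 RUVr factors, no filter, upper-quartile scaling, an adjusted p of 0.05, fits of 2 groups only, blocks, a prior count of 5 and leaving out libraries. The edgeR fit was tested on simulated data.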

Additional observations from a re-analysis of the deposited data

Results flagged for a closer look

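Over 64 sets of a gene or ratio in a group, a Dixon test at 95% found 4 in which the highest or lowest library stood apart, where chance gives about 1 in 20, or 3.2. In male Ts65Dn, Jam2 was lowest in replicate B145, at 5.372 log2 CPM, with the next library at 5.865, and the other triplicated genes of B145 were at the euploid level. In female euploid mice, Jam2 was highest in replicate B85, at 5.954, with the next at 5.365, and its Jam2 over Jam3 log2 ratio was 1.205, with the next at 0.4392. The other triplicated genes of B85 were at the euploid level, its Xist and Ddx3y went against the label, and its marker sums were 48.1 CPM for choroid plexus, 3494 for myelin and 1326 for interneurons, the lowest of the euploid females for the first pair of markers. In male euploid mice, the Jam2 over Jam3 log2 ratio was lowest in replicate B95, at 0.1898, with the next at 0.4723. No sex by genotype term of the 5 genes passed.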

How the results depend on the processing

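Of the fold changes of the 5 genes recomputed under the alternatives, 1224 kept direction and side of the threshold, 28 lost the call, 10 gained it and 63 turned direction, the last among values that had not passed. For ratios these were 364, 21, 7 and 10, and for values against the other triplicated genes 221, 8, 1 and 26. The calls of Dscam and Jam2 in Ts65Dn vs. euploid mice were kept in all but one: Dscam at E17.5 was 0.5484 (adjusted p = 0.111) with the hindbrain marker sum as covariate. The cause of the changes below was not tested beyond the libraries named.

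The fit with the replicate number as a block (7 shared numbers at E17.5) gave 0.8729 for Dscam (adjusted p = 0.0672) and 0.8325 for Jam2 (adjusted p = 0.000371), and 128 genes against 221. Deviations of same-numbered embryos correlated at -0.133 to 0.229 across genes. Most same-numbered embryos also share the second number of their names, and the labels do not say what either number stands for.

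In Ts65Dn;Brwd1+/- vs. euploid males, Dscam was called at 0.3286 by DESeq2, 0.3184 and 0.3176 with 3 RUVr factors in edgeR and DESeq2, and 0.455 without the libraries at the euploid level of the other triplicated genes, also when those against the labelled sex were left out too. Jam2 there, at 0.4426, did not pass 0.05. In females, Jam2 lost its call at 0.05 (0.4174), with no filter (0.4169) and with the 2 groups only (0.417), as did Dscam with the 2 groups only (0.4462).

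Without the libraries at the euploid level, Dscam over Dscaml1 turned to 0.03716 in males and 0.05084 in females for Ts65Dn;Brwd1+/- vs. Ts65Dn, and Jam2 over F11r to 0.1431 in males. Against euploid males, Jam2 over Jam3 passed at 0.4586 and Jam2 over F11r at 0.8437. Without both kinds of library these were 0.03329, 0.05084, 0.03592, 0.4586 and 0.8437. Against the other triplicated genes, Jam2 in Ts65Dn;Brwd1+/- vs. euploid males turned to 0.002327 with a prior count of 5 and 0.02065 without the libraries at the euploid level, Dscam in Ts65Dn vs. euploid males to -0.01177 without them, and Jam2 in Ts65Dn;Brwd1+/- vs. euploid females to 0.0209 without the library against the labelled sex.

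Among values that did not pass, the sex term of F11r for Ts65Dn;Brwd1+/- vs. Ts65Dn turned to -0.001004 (DESeq2), -0.002703 (no filter), -0.01405 and -0.01661 (RUVr in edgeR and DESeq2) and -0.1458 (without libraries against the labelled sex), which also moved F11r in males to 0.04632 and Dscaml1 in Ts65Dn females to 0.002816 (0.000504 without both kinds). The sex term of Jam2 for Ts65Dn vs. euploid was -0.06301 without the libraries at the euploid level, and Jam3 at E17.5 was 0.05388 with the hindbrain covariate.

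Leaving out each library in turn gave ranges in which a call or direction changed. For Ts65Dn;Brwd1+/- vs. euploid, Dscam ran from 0.2972 to 0.3928 and Jam2 from 0.4112 to 0.5039 in males, and Jam2 from 0.3813 to 0.5233 in females. For Ts65Dn vs. euploid, Dscaml1 ran from -0.01362 to 0.06909 and F11r from -0.2276 to 0.03688 in males, and Dscaml1 from -0.09056 to 0.005635 in females. For Ts65Dn;Brwd1+/- vs. Ts65Dn, F11r ran from -0.2115 to 0.04632 in males and -0.1889 to 0.05463 in females, and Jam3 from -0.06612 to 5.505e-05 in females. The sex terms ran from -0.06705 to 0.1135 for Jam2 in Ts65Dn vs. euploid, and for Ts65Dn;Brwd1+/- vs. Ts65Dn from -0.04345 to 0.04868 (Dscaml1), -0.01179 to 0.1201 (Dscam), -0.1414 to 0.1524 (F11r) and -0.1004 to 0.0404 (Jam2). Ratios for Ts65Dn;Brwd1+/- vs. euploid ran from 0.3298 to 0.4719 (Dscam over Dscaml1, males), 0.2303 to 0.3558 and 0.4384 to 0.6167 (Jam2 over Jam3, males and females) and 0.4633 to 0.7412 (Jam2 over F11r, males), and Jam2 over F11r in Ts65Dn vs. euploid males from 0.5431 to 0.7677. For Ts65Dn;Brwd1+/- vs. Ts65Dn they ran from -0.1288 to 0.02529 and -0.07521 to 0.05084 (Dscam over Dscaml1, males and females) and -0.1908 to 0.08437 and -0.2316 to 0.00803 (Jam2 over F11r). Against the other triplicated genes, Jam2 at E17.5 ran from 0.1947 to 0.2539. Dscam vs. euploid ran from -0.03538 to 0.0399 in male and -0.03095 to 0.05131 in female Ts65Dn, and from -0.1487 to -0.09625 in male and -0.1029 to 0.00814 in female Ts65Dn;Brwd1+/-, where Jam2 ran from -0.03732 to 0.0138 and -0.09411 to 0.0209.

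Counts over all genes moved by more than 1.5 times in every comparison: from 79 to 4067 at E17.5 (221 as reported), 83 to 1197, 37 to 1322, 264 to 4375 and 67 to 3585 (0.795%, 0.576%, 3.17% and 0.729% of genes as reported) in the adult comparisons with euploid, and from 0 to 993 and 840 between the trisomic genotypes, the highest being DESeq2 with 3 RUVr factors in each. F11r held the lowest counts of the members, 108 to 443 at E17.5 and 238 to 1502 in the adult libraries. The SE of its fold change was 0.11 at E17.5, against 0.17 for Dscam. In the adult comparisons within a sex it was 0.20 to 0.24. The part of depth in these values was not tested.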
